A study of Tetranychus urticae with 4 samples.

Results

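Actin (tetur03g09480), ubiquitin C (tetur03g06910) and ribosomal protein 49 (RP49, tetur18g03590) are 3 genes of the two-spotted spider mite Tetranychus urticae that are used as constant references in quantitative PCR. They were taken by identifier, for that use as references, from the 18020 genes of the count table. The identifiers carry no gene names in the deposited files, so the names rest on the published use of these identifiers as reference genes. The libraries came from adult females of the London strain, with no treatment named in the labels: 1 library from the dissected proterosoma of 250 pooled females, and 3 whole-body libraries, each from 100 pooled intact females. The proterosoma is the front of the mite body, with the mouthparts, salivary glands, front legs and central nerve mass, and the intact body includes it. Neither the age of the females nor separate cultures for the 3 whole-body pools are given in the sources used here. The p-values therefore cover the spread among these samples alone, and that spread may be technical.

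Actin forms the filaments of the cell cortex and the thin filaments of muscle. Ubiquitin is a small protein that is attached to other proteins and marks many of them for breakdown by the proteasome, and its genes often hold head-to-tail repeats of the coding unit. RP49 is a protein of the large ribosomal subunit. All are made in nearly every cell, which is why they serve as references: the level of a test gene is divided by that of the reference, so any change in the reference passes, inverted, into the result. Actins form a gene family in animals and ubiquitin units are near-identical, so reads shared with other copies may have been split or lost in the counting.

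Sequencing depth was high for all 3 genes. The proterosoma library held 19667380 counted reads and whole-body replicates 1, 2 and 3 held 23647775, 12356237 and 11630954. In the proterosoma library the genes had 138350 reads (actin), 54961 reads (ubiquitin C) and 5036 reads (RP49), and the smallest count of any of them was 3368, for RP49 in whole-body replicate 3. Libraries were scaled by TMM, which sets library sizes so that the bulk of genes is level between libraries, and levels are given as CPM, reads scaled to a common library size. Most genes differed between the body parts: 81.4% of the 13278 genes tested were called at an adjusted p under 0.05 by edgeR's quasi-likelihood test. With 1 proterosoma library, its own spread was not measured, and the test assigns it that of the whole bodies. The labelled body parts were not checked against marker genes, since no identifier could be paired with a gene name.

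Actin was far higher in the proterosoma. It had 138350 reads in the proterosoma, against 18394 in whole-body replicate 1, 9961 in replicate 2 and 7098 in replicate 3. That was 9460.5 CPM in the proterosoma, against 681, 734 and 569 CPM in the whole-body libraries, in the same order. The proterosoma value lay above all 3 whole-body values, whose mean was 661 ± 84.4 CPM (SD, n = 3). The difference was 14.3-fold (log2 fold 3.84, standard error 0.18, edgeR quasi-likelihood test with Benjamini-Hochberg adjusted p = 7.14e-06). Actin rose by more than 84.3% of the genes tested moved in either direction. It took 0.703% of the proterosoma reads (exact 95% binomial interval 0.700 to 0.707%, counting error only) and 0.0610 to 0.0806% in the whole bodies. By number of reads, which also depends on transcript length, actin stood at place 13 in the proterosoma library and at places 96 to 138 in the whole bodies. In bulk samples, a different share of cells that make a transcript and a different amount per cell cannot be told apart. Dissection and pool size (250 females against 100) also differ between these libraries and cannot be told apart from body part.

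Ubiquitin C was also higher in the proterosoma, by a much smaller step. It stood at 3758 CPM in the proterosoma, against 1819, 1799.9 and 1741 CPM in the whole-body libraries. The whole-body libraries lay close together, at 1787 ± 40.5 CPM (SD, n = 3), and the proterosoma value was above all of them. The fold was 2.10 (log2 fold 1.07, standard error 0.14, edgeR adjusted p = 6.23e-04). Against a null of a 2-fold change in place of no change, the rise was not called (edgeR glmTreat, adjusted p = 0.226), a test that called 53.1% of the genes. Its share was 0.279% of the proterosoma reads (exact 95% interval 0.277 to 0.282%) and 0.187 to 0.208% in the whole bodies. Of the genes tested, 38.9% moved by less than ubiquitin C.

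RP49 showed no called difference between the body parts. Its level was 344 CPM in the proterosoma, against 336, 373 and 269.96 CPM in the whole-body libraries. The proterosoma value fell inside the whole-body range, whose mean was 326 ± 52.3 CPM (SD, n = 3). The log2 fold was 0.08 (standard error 0.19, 95% interval from -0.39 to 0.54, edgeR adjusted p = 0.715). Changes of either sign within that interval remain compatible with these data. Only 3.19% of the genes tested had a smaller fold. In all, 2 of the 3 genes were called higher and 0 lower, where 41.0% of all genes tested were called higher and 40.4% lower. Actin and ubiquitin C were also called by the DESeq2 Wald test, which called 61.1% of its genes and gave RP49 an adjusted p of 0.806.

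**Figure D1:**
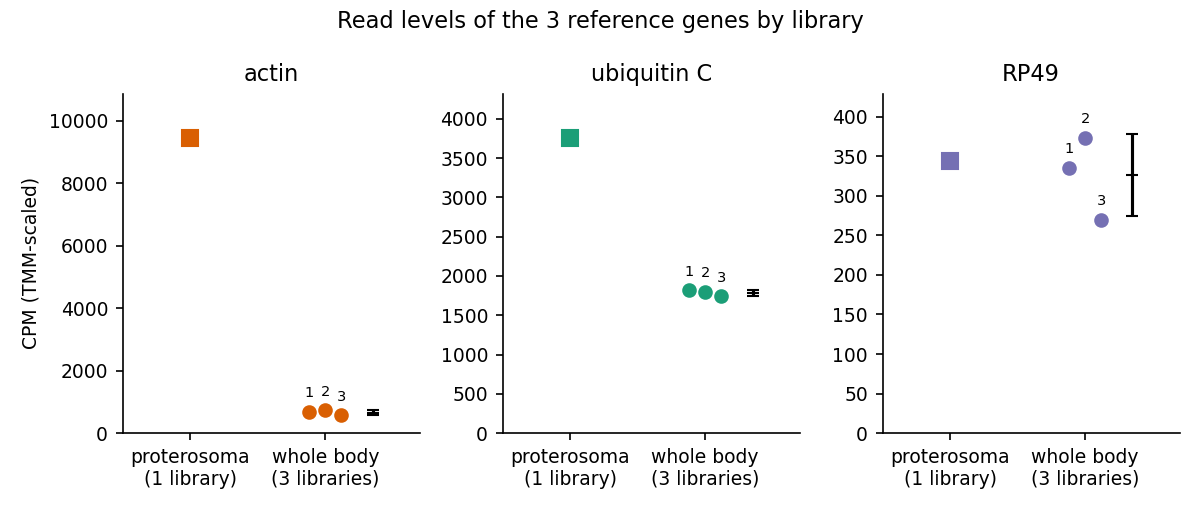
Level of each gene in TMM-scaled CPM (vertical axis, separate scale for each gene) in the proterosoma library (square) and the 3 whole-body libraries (circles with replicate number); the black bar is the whole-body mean ± SD. Actin and ubiquitin C lie above all whole-body libraries in the proterosoma, at 9460.5 and 3758 CPM, and RP49, at 344 CPM, lies among them.

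The authors' deposited table, which holds their own comparison of the body parts, listed actin at a log2 fold of 3.82 (error 0.19). Ubiquitin C was listed at 1.06 (error 0.12) in the authors' deposited table, and RP49 at 0.06 (error 0.22, adjusted p = 0.806).

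How level RP49 was depended on how the libraries were scaled. Scaled by library size alone, RP49 had 256 CPM in the proterosoma, against 383 CPM in whole-body replicate 1, 409.8 CPM in replicate 2 and 289.6 CPM in replicate 3. The proterosoma value then lay below all 3 whole-body values, with a log2 fold of -0.50 and an adjusted p of 0.0663 (edgeR), which missed the threshold where 83.4% of the genes passed it. With the 100 most abundant genes left out of the library sizes, the log2 fold was -0.40 (edgeR adjusted p = 0.0964), with 83.6% of the genes called. Upper-quartile scaling gave a log2 fold of 0.15 (edgeR adjusted p = 0.486, with 81.2% of the genes called), and DESeq2 size factors gave 0.09 (edgeR adjusted p = 0.676, with 81.4% called). No scaling by many genes moved RP49 across the threshold, and its sign was not fixed.

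The other genes kept their direction under all 5 scalings that use many genes. Actin ranged from 9.62-fold with library size alone to 15.1-fold with the upper quartile. Ubiquitin C ranged from 1.42-fold with library size alone (edgeR adjusted p = 0.0177) to 2.22-fold with the upper quartile. Library size alone moved the median log2 fold of all genes tested to -0.60, against -0.03 with TMM. Taken relative to that median, actin stood at 3.87 with library size alone and 3.87 with TMM, ubiquitin C at 1.10 and 1.10, and RP49 at 0.11 and 0.11 on the log2 scale. That likeness is built in: a change of scaling moves all folds by about the same amount, so it is no further evidence.

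**Figure D2:**
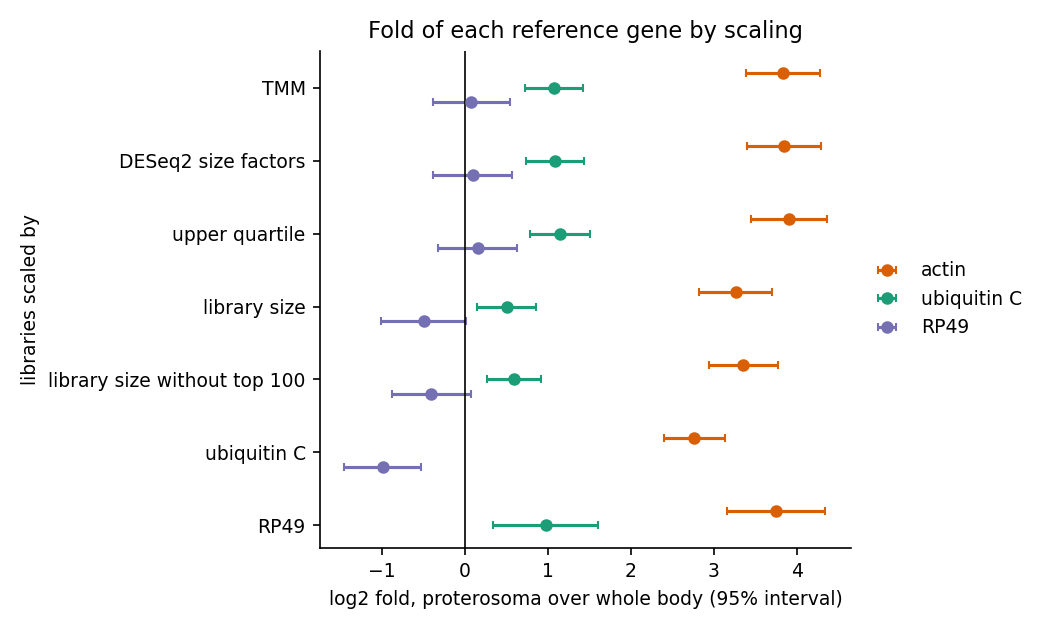
Log2 fold, proterosoma over whole body, with its 95% interval (horizontal axis) for each gene, by the quantity the libraries were scaled to (vertical axis). Scalings to actin and to the geometric mean of the 3 genes are not drawn; with these, ubiquitin C was at -2.78 and -0.60. Actin and ubiquitin C are right of 0 in the lines drawn, while RP49 lies on either side of 0 under the scalings that use many genes and at -0.99 when scaled to ubiquitin C.

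A ratio of reads between genes within a library does not depend on any scaling, although it also reflects transcript lengths and so says nothing of which gene is the more abundant. There were 27.5 actin reads for each RP49 read in the proterosoma, against 2.03 in whole-body replicate 1, 1.97 in replicate 2 and 2.11 in replicate 3. This ratio was 13.5-fold higher in the proterosoma, a log2 difference of 3.76, where the whole-body SD on the log2 scale was 0.05. Reads of ubiquitin C per RP49 read numbered 10.9 in the proterosoma library, against 5.42, 4.82 and 6.45 in the whole-body libraries, a 1.98-fold higher ratio. For actin over ubiquitin C the ratio was 2.52 in the proterosoma library, against 0.374, 0.408 and 0.327 in the whole-body libraries, a 6.84-fold higher ratio. In each of the 3 pairs the proterosoma ratio lay outside the whole-body range.

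With 1 library against 3, an exact two-sided permutation test cannot go below p = 0.25, and it gave p = 0.25 for each of the 3 pairs (0.25 after adjustment over the pairs). The edgeR test with library sizes set to the reads of one gene tests the same ratios in a fit over all genes. Scaled to RP49, the log2 fold was 3.75 for actin (standard error 0.30, edgeR adjusted p = 3.82e-34) and 0.97 for ubiquitin C (standard error 0.32, edgeR adjusted p = 0.00467), with 67.5% of all genes called. Scaled to ubiquitin C, it was 2.77 for actin (standard error 0.15, edgeR adjusted p = 1.25e-05), and -0.99 for RP49 (standard error 0.19, edgeR adjusted p = 0.00306), with 86.2% called. The fit scaled to RP49, unlike that scaled to ubiquitin C, used a single spread for all genes (infinite prior degrees of freedom), so its p-values are not on the footing of the others. These fits also treat the scaling gene as known without error. In these libraries each pair of the 3 genes differed between the body parts in its ratio.

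**Figure D3:**
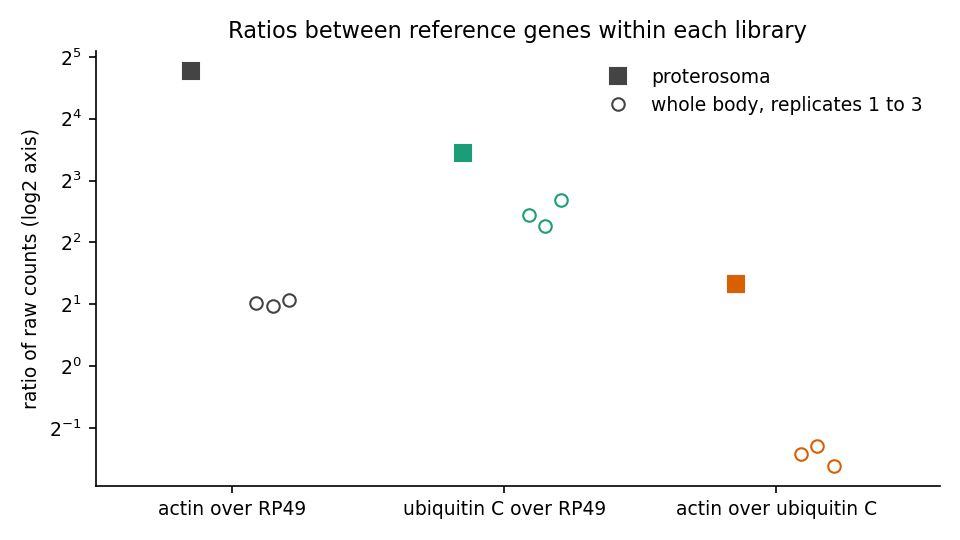
Ratio of raw read counts between each pair of genes (vertical axis, log2 scale) in the proterosoma library (filled square) and in whole-body replicates 1 to 3 (open circles, left to right). Actin over RP49 is at 27.5 in the proterosoma and between 1.97 and 2.11 in the whole bodies, which nearly coincide.

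Among the whole bodies alone, ubiquitin C varied least of the 3 under the 5 scalings that use many genes. With TMM its coefficient of variation (CV, the SD as a percentage of the mean) over the 3 whole-body libraries was 2.27%, against 12.8% for actin and 16.0% for RP49. Counting error alone would give 0.561%, 0.920% and 1.31% for ubiquitin C, actin and RP49, so the observed spread was 4.04, 13.9 and 12.2 times that of counting. The median CV was 5.22% over the 1990 genes averaging 100 CPM or more, and 82.9% of these had a lower CV than actin and 89.2% a lower CV than RP49. A lower CV than that of ubiquitin C was found for 15.7% of them. Scaled to the geometric mean of the 3 genes, ubiquitin C varied most, with a CV of 8.68%, against 2.58% for actin and 5.99% for RP49. This scale is made from the same 3 genes and follows any movement shared by actin and RP49. The order it gives is therefore no separate measure of constancy. With TMM, RP49 had the smallest fold between body parts and the highest CV of the 3 among the whole bodies.

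Actin and RP49 moved the same way across the whole-body libraries. Both were highest in whole-body replicate 2 and lowest in replicate 3. With TMM, ubiquitin C was also lowest in replicate 3, but highest in replicate 1. The ratio of actin to RP49 had a CV of 3.45% over the whole-body libraries, against 14.8% for ubiquitin C over RP49 and 11.0% for actin over ubiquitin C. With so few libraries, a shared order carries little weight. Replicate 3 carries much of the spread: without it, the CV was 5.31% for actin, 7.52% for RP49 and 0.747% for ubiquitin C, each over the other 2 libraries.

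Each whole-body library was also tested against the other whole-body libraries by edgeR, with the proterosoma library left out. In replicate 3 the log2 ratio to the others was -0.32 for actin (standard error 0.11, edgeR adjusted p = 0.489). For RP49 it was -0.39 (standard error 0.10, unadjusted p = 0.00741, edgeR adjusted p = 0.356), and for ubiquitin C -0.056 (standard error 0.14, edgeR adjusted p = 0.933). In replicate 2 RP49 stood at 0.30 (standard error 0.15, edgeR adjusted p = 0.820) and actin at 0.23 (standard error 0.16, edgeR adjusted p = 0.999). None of the 3 genes was called in any of the 3 whole-body tests, which called 0, 1.54% and 0.00818% of the 12228 genes tested for replicates 1, 2 and 3. The log2 ratios largest in size were those of RP49 and actin in replicate 3, at -0.39 and -0.32, and neither was called. The spread in each such test comes from only 2 libraries.

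The order of stability among the 3 genes depended on the measure and on the libraries compared. The M value used to rank qPCR references is the mean SD of a gene's log2 ratios to the other candidates, and a low M marks a constant gene. Over the whole-body libraries M was 0.106 for actin, 0.130 for RP49 and 0.186 for ubiquitin C, so ubiquitin C, which had the lowest CV with TMM, had the highest M. With the proterosoma library added, M was 1.64 for actin, 1.20 for RP49 and 0.957 for ubiquitin C. Actin had the lowest M of the 3 over the whole bodies and the highest over all 4 libraries. As M uses only ratios among the 3 genes, genes that move together receive a low M, as actin and RP49 did among the whole bodies.

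With all libraries and TMM, none of the 3 genes met a limit on the fold and one on the CV together. A log2 fold within 0.1 of 0 between body parts, together with a CV under 10% among whole bodies (both with TMM), was met by 81 of these 1990 genes (4.07%). These limits were chosen after the values were seen. RP49 met the limit on the fold and missed that on the CV, ubiquitin C met the limit on the CV and missed that on the fold, and actin missed both. For RP49 this rests on whole-body replicate 3: without it the CV was 7.52% and the log2 fold -0.059, inside both limits, while with upper-quartile scaling the log2 fold of 0.15 missed the limit on the fold. Of the 1990 genes, 71 had both a smaller fold and a lower CV than RP49, 136 than ubiquitin C, and 1419 than actin. Only 3.87% of the 1990 genes had a smaller fold than RP49 at all. The count of 71 therefore mostly restates the small fold of RP49 with TMM and says little of its CV.

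**Figure D4:**
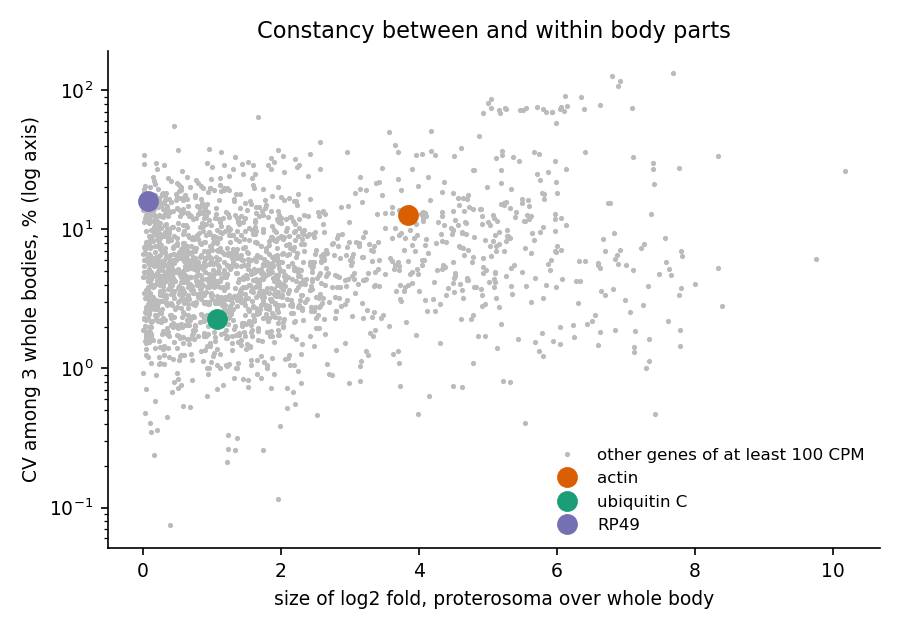
Size of the log2 fold between body parts (horizontal axis) against the CV among the 3 whole-body libraries in percent (vertical axis, log scale) for the 1990 genes averaging 100 CPM or more. Actin lies at 3.84 and 12.8%, ubiquitin C at 1.07 and 2.27%, and RP49 at 0.08 and 16.0%, and constant genes lie at the lower left.

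Each gene was also used as the only reference, as a qPCR assay would. Scaling to one gene moves the folds of all other genes by about that gene's own fold, so the counts of calls that follow restate the folds above on the scale of all genes and are no further evidence about the reference. Scaled to actin, 588 of the 13278 genes tested were called higher and 11428 lower in the proterosoma (4.43% and 86.1%, together 90.5%), against 5449 higher and 5363 lower with TMM (41.0% and 40.4%). The median log2 fold of all genes tested was -3.87 with actin as the reference. Of the genes called higher with TMM, 3599 (66.0%) were called lower with actin. Ubiquitin C as the reference gave 3277 genes higher and 8174 lower (24.7% and 61.6%), and 806 of the genes called higher with TMM were called lower (14.8%).

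RP49 as the reference kept the balance of calls and lost some of them. It gave 4401 genes higher and 4566 lower (33.1% and 34.4%), called 0 genes in the opposite direction to TMM, and kept 8849 of the 10812 TMM calls (81.8%) in the same direction. The median log2 fold was -0.13 with RP49, against -0.03 with TMM. The geometric mean of the 3 genes, a common way to combine references, gave 2359 genes higher and 9112 lower (17.8% and 68.6%, together 86.4%), with 1429 calls opposite to TMM. For comparison, library size alone gave 4149 higher and 6928 lower (31.2% and 52.2%), with 80 calls opposite to TMM. Called in the same direction with TMM and with each of the 3 genes as the reference were 588 higher and 4468 lower genes. The fits scaled to actin, to RP49 and to the geometric mean each used a single spread for all genes, which also affects these counts.

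**Figure D5:**
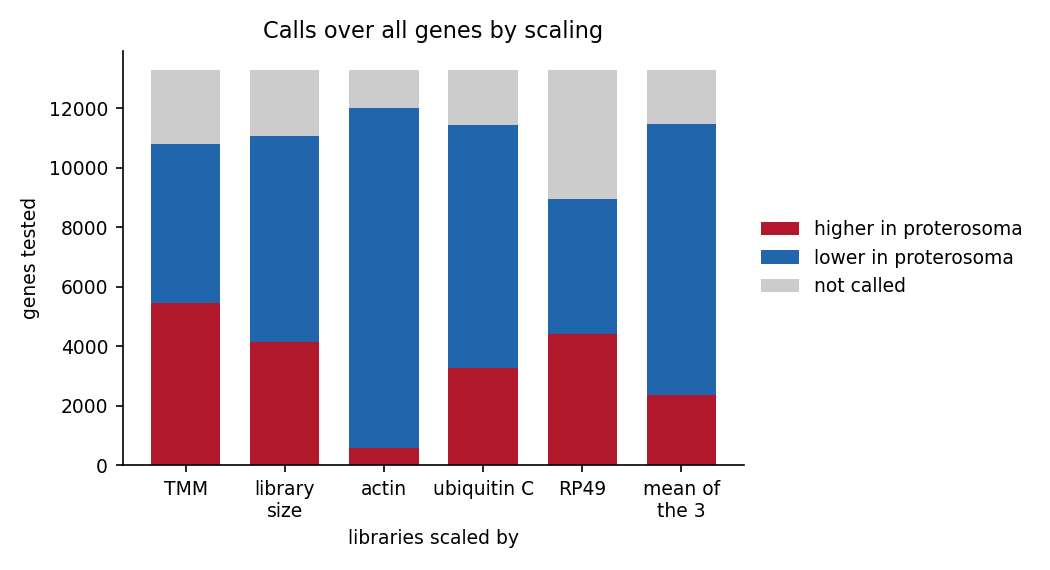
Number of the 13278 genes tested (vertical axis) called higher (red) or lower (blue) in the proterosoma or not called (grey), by the quantity the libraries were scaled to (horizontal axis). The number called higher is 588 with actin, 3277 with ubiquitin C and 4401 with RP49, and 5449 with TMM.

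Other genes shared these profiles. Among 1987 other genes averaging 100 CPM or more, likeness was measured over the 4 libraries as the root mean square difference of centred log2(CPM + 1) values. The gene most like actin was tetur41g00180, at a difference of 0.0434. It had 2326 CPM in the proterosoma, against 168, 169 and 141 CPM in the whole-body libraries, a log2 fold of 3.87 (edgeR adjusted p = 3.25e-06). The gene most like ubiquitin C was tetur13g03460, at a difference of 0.0193. It had 193 CPM in the proterosoma, against 95.6, 94.9 and 92.3 CPM in the whole-body libraries, a log2 fold of 1.04 (edgeR adjusted p = 3.36e-05). Profiles within 0.1 were found for 5 genes with actin, 62 with ubiquitin C and 55 with RP49, so close companions of actin were few. With 4 libraries, of which 1 differs from the rest, such likeness mostly reflects the fold between body parts. The named genes were picked for this likeness in the same libraries, so their folds and p-values follow from the choice and are no separate evidence.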

How the data were processed

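The authors deposited raw counts of reads per gene for 4 libraries. The submitters' processing notes name STAR 2.5.0b, HTSeq 0.6.0 and DESeq2 1.6.3, and libraries were strand-specific per the labels. The genome build, annotation, strand setting and handling of multiply mapped reads were not stated in those sources. The authors' deposited comparison holds a mean normalised signal, log2 folds with errors, a test score, and p-values before and after adjustment. Where its log2 fold was 1 or more in size, 100% of genes had a sign that, judged by the counts, set the proterosoma over the whole body.

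Counts were tested with edgeR 4.0.16 in R 4.3.3 (quasi-likelihood F test after TMM, filtered by filterByExpr within group, body part as the only term). All 4 libraries entered 1 fit over 13278 of 18020 genes. The spread came from the whole bodies (2 residual and 3.82 prior degrees of freedom), so the single proterosoma library is taken to vary as they do. The prior degrees of freedom stand for spread borrowed from other genes, so a standard error does not rest on a gene's own CV alone. Ubiquitin C, with a CV of 2.27%, had a standard error of 0.14, and RP49, with a CV of 16.0%, had 0.19. Standard errors are log2 folds over the root of F. Genes were called at an adjusted p under 0.05. The code was tested on simulated counts.

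Scaling to a gene set each library size in proportion to that gene's reads. Alternatives included limma 3.58.1 (voom), DESeq2 1.42.0, other filters and scalings, and leaving out whole-body libraries one by one. Columns of per-sample values left unused numbered 0. Pairs of whole-body libraries differed by more than sampling noise (chi-square over its degrees of freedom 12.8 to 22.9) and were counted as separate samples; this does not tell separate pools from separate preparations of 1 pool. The CV was left undefined for 16 tested genes with no whole-body reads. The 3 genes were picked by their use as references, but they, the lists and the tests were chosen with earlier results of these data known. Named genes were the 3 genes and the gene most like each, limited to 2 further identifiers higher and 2 lower, taken in the order actin, ubiquitin C, RP49, so the one most like RP49 is not named. Of the reference rows, 0 held an identifier of this kind, so lists of ribosomal, actin, ubiquitin, proteasome and other reference genes, and marker genes, could not be matched and were not described.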

Additional observations from a re-analysis of the deposited data

How the results depend on the processing

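Of 180 values recomputed under alternatives, 148 held. For tested log2 values this means the same sign and the same side of the threshold, and for counts and CVs a change of at most 1.5 times. For ratios of reads between the genes it means a change smaller than the whole-body SD of the log2 ratio. The log2 fold of ubiquitin C was -2.78 scaled to actin and -0.60 scaled to the geometric mean of the 3 genes. Against a 2-fold change (glmTreat) its 1.07 was not called. The log2 fold of RP49 was -0.50 with library size alone, -0.40 without the 100 most abundant genes, -3.76 scaled to actin, -0.99 scaled to ubiquitin C and -1.58 scaled to the geometric mean. Those last 3 carry the inverted shift of the reference itself, so they are no separate evidence of a fall in RP49.

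Genes called higher numbered 588, 3277 and 2359 scaled to actin, ubiquitin C and the geometric mean, and genes called lower 11428, 8174 and 9112. By construction a reference that differs between body parts shifts every other fold. The CV of actin among whole bodies was 3.45% scaled to RP49 and 2.58% scaled to the geometric mean, and that of RP49 was 3.44% and 5.99% scaled to actin and the geometric mean. The CV of ubiquitin C was 5.31% with library size alone, 11.3% scaled to actin, 14.8% scaled to RP49 and 8.68% scaled to the geometric mean.

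Without each whole-body library in turn, log2 folds were 3.72 to 3.91 for actin, 1.04 to 1.09 for ubiquitin C and -0.059 to 0.18 for RP49, the negative one without replicate 3, for which the cause was not tested. CVs were 5.31 to 17.9% for actin, 0.747 to 3.09% for ubiquitin C and 7.52 to 22.7% for RP49. Scaled to RP49, the log2 ratios of replicates 1, 2 and 3 to the other whole bodies were -0.0053, -0.072 and 0.076 for actin. Those for ubiquitin C were -0.056, -0.30 and 0.33. No paired analysis was possible because only whole bodies have replicate numbers. Each of the 3 genes had at least 3368 reads in every library, so counting error is small beside the spread over all 3 whole bodies. That does not hold for ubiquitin C without replicate 3, where the CV was 0.747% and counting error alone would give 0.522%. The single proterosoma library leaves its own spread unmeasured.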
